A study of Mus musculus with 6 samples.

Results

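The AP-1 and EGR immediate early genes were followed in clonal mouse embryonic fibroblasts (MEFs) with and without the cytoskeletal linker gene Macf1. The 10 members were listed by gene symbol, with earlier results of these data known, so counts over them are descriptions. They are the 4 Fos family genes (Fos, Fosb, Fosl1, Fosl2), the 3 Jun family genes (Jun, Junb, Jund) and 3 EGR genes (Egr1, Egr2, Egr3). They stand among 20396 genes with a count above 0, of which 12745 had enough counts to be tested, 9 members among them. Egr3 fell below the low-count limit.

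Poly(A) RNA was sequenced from 3 knockout clones and 3 het clones. The knockout clones (Macf1-/-) came from MEFs of Macf1flox/flox mice, and the het clones (Macf1-/+) from MEFs of Macf1flox/+ mice. Cells of both groups were immortalized with SV40 large T antigen, treated overnight with AAV8-CMV-Cre and then grown from single cells, so the controls had also lost 1 Macf1 allele and had also met Cre. The CMV promoter is active in most cell types and does not limit Cre to one of them. RNA came from confluent cells. The sources used here do not give the serum state or the time since feeding at RNA isolation, 2 conditions to which these genes respond. They also do not say how many embryos or founder cultures stand behind the clones. The p-values below therefore take the 6 clones as units and set the difference between groups against the spread of clones within each group. Knockout and het clones also descend from mice of different genotypes, so the Macf1 genotype and other inherited or clonal differences cannot be told apart.

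Immediate early genes are transcribed within minutes of a stimulus, without new protein synthesis. Growth factors and serum act on them through MAP kinases, the serum response factor SRF with its TCF partners, and the cAMP-responsive factor CREB. Fos proteins are leucine zipper factors that bind DNA as dimers, mostly with a Jun protein, whereas Jun proteins also pair with each other, and the resulting AP-1 complex binds a short palindrome. EGR proteins bind GC-rich sites through zinc fingers and are held in check by the NAB corepressors. In fibroblasts, classic serum-induced genes include Fos, Fosb, Junb and Egr1 to Egr3, whereas Fosl1 and Fosl2 follow later, and Jund is present also in resting cells.

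The libraries held 16581833 to 18209673 estimated counts in the knockout clones and 15661342 to 17614982 in the het clones. A count of 3 in 1 library, the limit that a count of 0 allows, corresponded to 0.155 to 0.188 CPM, the usual count scaled to library size, here with TMM factors, and such limits and all counting intervals below cover counting error only. Macf1 itself stood at 309, 363 and 322 CPM in knockout clones, against 693, 696 and 579 CPM in het clones (log2 fold change -0.99, SE 0.13, edgeR adjusted p = 0.00307). Of the 12 fibroblast markers, 8 reached 1 CPM in knockout clones and 9 in het clones. Their levels differed, with sums of 2106 to 4162 CPM in knockout clones and 4692 to 7271 CPM in het clones. Vim, an intermediate filament gene, was high throughout, at 1595 to 3606 CPM in knockout clones and 2147 to 2818 CPM in het clones. The type I collagen gene Col1a1 stood at 2.69 to 13.8 CPM in knockout clones, against 1019 to 1498 CPM in het clones, and Lum was at 0 in all clones. Col1a2, Col3a1, Pdgfra, Pdgfrb, Prrx1 and S100a4 were also lower in knockout clones (edgeR adjusted p = 0.00115 to 0.0401). Vim (edgeR adjusted p = 0.612) and Twist1 (0.246) did not pass. Summed leukocyte markers were 22.5 to 27.5 CPM in knockout clones and 11.9 to 16.8 CPM in het clones, most of it Cd14, and Adgre1 was at 0. Summed neural and glial markers were 16.7 to 22.3 CPM in knockout clones and 37.8 to 66.4 CPM in het clones. Endothelial, epithelial and muscle markers each summed to under 5 CPM in every clone, and Myod1, Myog, Myf5 and Emcn were at 0. The part of these marker differences in the results below was not tested.

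In the knockout clones Fos, Fosb, Fosl2, Egr1 and Egr2 fell and Jund rose. Fosl1, Jun and Junb did not pass the test. Fold changes were 3.33-fold lower for Fos, 2.65-fold for Fosb, 2.42-fold for Fosl2, 4.94-fold for Egr1 and 1.67-fold higher for Jund. By edgeR's quasi-likelihood test with Benjamini-Hochberg adjustment over all genes and a threshold of 0.05, 6 of the 9 tested members passed, 5 lower and 1 higher. Over all 12745 genes tested, 28.1% passed, 14.2% lower and 13.9% higher. Knockout and het clones did not overlap for 7 of the 9 tested members, against 47.5% of all genes tested. Egr2 passed the low-count filter through its het counts and had to differ to be tested, and without it 5 of 8 tested members passed, 4 lower and 1 higher. The median log2 fold change depended on which members were counted. It was -1.27 over the 9 tested members, -0.58 over the 8 without Egr2 and 0.11 over the 7 that have deposited FPKM values, against -0.000612 over all genes tested. On the log2(FPKM + 1) scale those 7 members had a median of 0.15. In bulk RNA a change in how many cells express a gene and a change in the RNA per cell cannot be told apart.

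**Figure D1:**
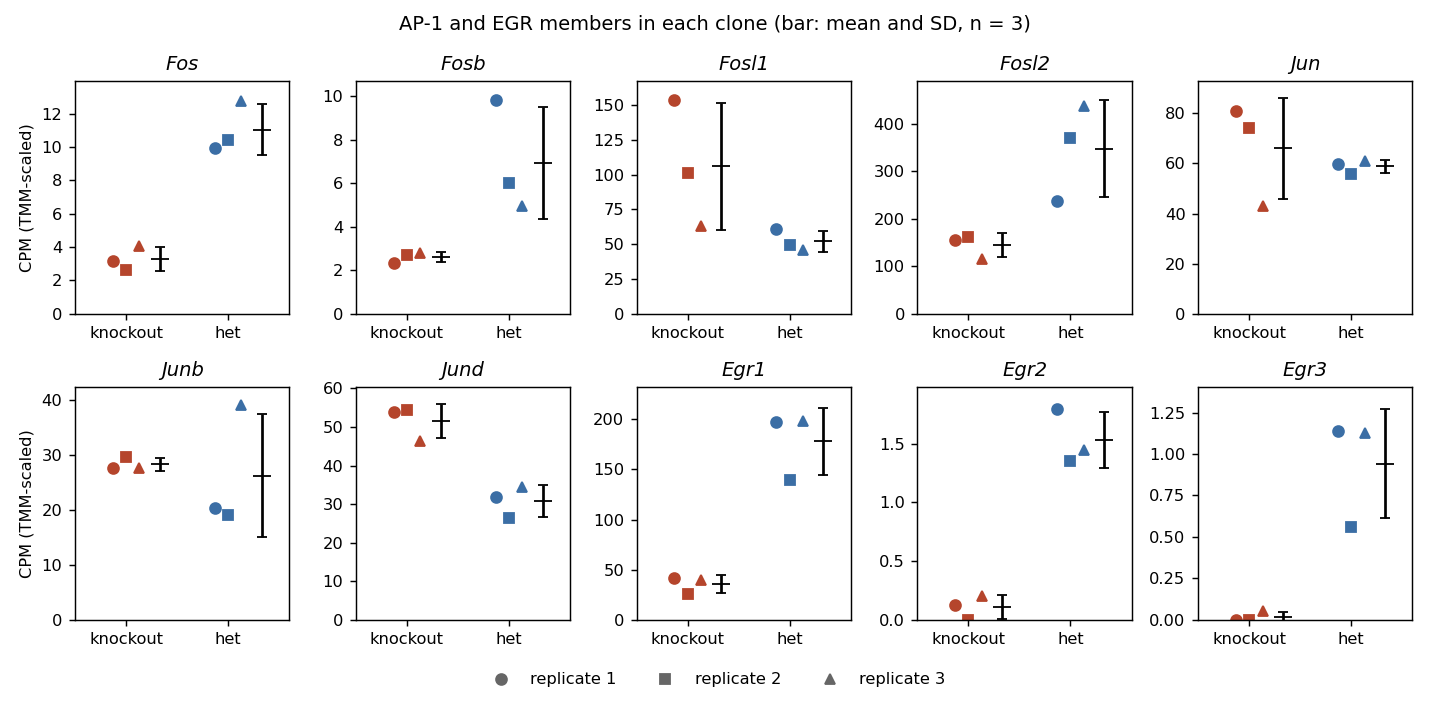
CPM of each member in each clone (y axis, a separate scale per gene) with knockout clones on the left and het clones on the right, and the group mean ± SD (n = 3) beside the points. Fos, Fosb, Fosl2, Egr1, Egr2 and Egr3 are lower in every knockout clone than in any het clone, Fosl1 and Jund are higher in every knockout clone, and the clones overlap for Jun and Junb.

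Upstream sequences of 4 of the members that fell are shown with the matches to cAMP response, SRF, AP-1 and EGR motifs that were found in them. RefSeq windows of 300 bases (GRCm38.p6, 250 before to 50 after the annotated start) matched 7 of 10 members, all but Fosl1, Egr1 and Egr3. Those of Fos (chr12:85473640-85473939, plus strand), Fosb (chr7:19309996-19310295, minus strand), Fosl2 (chr5:32136222-32136521, plus strand) and Egr2 (chr10:67537619-67537918, plus strand) follow, 5′ to 3′. Capitals mark matches to the motifs named after them.
Fos: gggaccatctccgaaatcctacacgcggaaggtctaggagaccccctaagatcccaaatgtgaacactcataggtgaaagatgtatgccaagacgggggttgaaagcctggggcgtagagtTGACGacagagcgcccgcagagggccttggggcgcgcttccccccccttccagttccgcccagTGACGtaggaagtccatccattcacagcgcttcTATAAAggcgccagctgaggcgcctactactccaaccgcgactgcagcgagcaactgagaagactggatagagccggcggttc
Fosb: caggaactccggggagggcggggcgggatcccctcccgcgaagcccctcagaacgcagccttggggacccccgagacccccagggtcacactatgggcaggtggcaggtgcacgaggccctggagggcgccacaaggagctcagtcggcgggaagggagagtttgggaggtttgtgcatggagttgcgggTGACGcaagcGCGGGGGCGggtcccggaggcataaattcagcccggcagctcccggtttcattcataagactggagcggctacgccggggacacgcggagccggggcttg
Fosl2: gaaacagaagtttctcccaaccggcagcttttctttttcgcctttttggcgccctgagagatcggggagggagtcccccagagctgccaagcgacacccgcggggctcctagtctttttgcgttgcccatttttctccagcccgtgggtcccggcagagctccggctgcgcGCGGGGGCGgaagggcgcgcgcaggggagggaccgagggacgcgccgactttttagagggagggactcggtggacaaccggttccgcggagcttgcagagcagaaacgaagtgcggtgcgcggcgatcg
Egr2: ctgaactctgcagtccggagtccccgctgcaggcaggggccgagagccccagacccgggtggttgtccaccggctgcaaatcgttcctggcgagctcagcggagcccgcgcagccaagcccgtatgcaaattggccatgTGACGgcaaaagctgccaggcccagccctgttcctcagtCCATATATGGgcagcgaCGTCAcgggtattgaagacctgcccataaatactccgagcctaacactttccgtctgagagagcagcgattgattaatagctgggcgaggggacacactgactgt
The motifs searched on both strands were the full cAMP response element TGACGTCA and its 5-base core TGACG, which lies within it, the AP-1 sites TGACTCA and TGACATCA, the EGR sites GCGGGGGCG and GCGTGGGCG, the SRF-binding CArG box, and TATAAA.

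Counted from the start site, with -1 the base just before it, the Fos window held TGACG at -129 to -125 and at -66 to -62, and TATAAA at -33 to -28. The Fosb window held TGACG at -60 to -56 and the EGR site GCGGGGGCG at -50 to -42. The Fosl2 window held the same EGR site at -79 to -71. RefSeq has 5 Egr2 windows, of which the one shown held a CArG box at -72 to -63 between TGACG at -111 to -107 and its reverse complement at -55 to -51. Of the other Egr2 windows, 2 overlap this one and hold the same matches, 1 holds a different CArG box and no TGACG, and 1 holds no match. Among the members that did not fall, the Jun window held TGACATCA at -45 to -38, and the Junb window TGACG at -106 to -102 and TATAAA at the start site itself. The Jund window ends upstream of the Jund gene as counted here and is not described. Of 32851 RefSeq promoter windows of the same length, 20.8% held TGACG, 13.6% TATAAA, 5.2% TGACTCA, 3.62% TGACATCA, 2.91% GCGGGGGCG, 1.79% TGACGTCA, 1.63% a CArG box and 0.612% GCGTGGGCG. These matches describe letters in the windows and are no measure of factor binding. Sites further than 250 bases before the start lie outside the windows and were not searched.

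Fos (ENSMUSG00000021250, GRCm38 chromosome 12, 85473890 to 85477273, plus strand) encodes the prototype partner of Jun in AP-1. It stood at 3.18, 2.65 and 4.08 CPM in knockout clones, against 9.93, 10.4 and 12.8 CPM in het clones. Every knockout clone was below every het clone, and the means were 3.30 ± 0.728 CPM in knockout and 11.04 ± 1.53 CPM in het (SD, n = 3 each). Fos thus fell by 1.74 on the log2 scale (SE 0.24, edgeR adjusted p = 0.00375). They rest on 174 counts in all in the knockout clones and 555 in the het clones. Tested genes around Fos, 20 on each side, had a median log2 fold change of 0.53, in the direction opposite to Fos. Over 15 alternative settings the log2 fold change of Fos lay between -2.26 and -1.24 and passed in all of them.

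Fosb (ENSMUSG00000003545, chromosome 7, 19302696 to 19310051, minus strand), whose protein is a close relative of Fos, also fell. It stood at 2.32, 2.71 and 2.79 CPM in knockout clones, against 9.81, 6.02 and 4.95 CPM in het clones. The knockout clones lay close together and below all het clones, and the het clones spread widely, with means of 2.61 ± 0.251 CPM in knockout and 6.93 ± 2.56 CPM in het (SD, n = 3 each). The log2 fold change was -1.41 (SE 0.32, edgeR adjusted p = 0.0195). This call was lost without knockout replicate 1 (edgeR adjusted p = 0.0723) and without knockout replicate 2 (0.0757).

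Fosl2 (ENSMUSG00000029135, chromosome 5, 32135801 to 32157842, plus strand) encodes Fra-2, a Fos protein without the strong activation domain of Fos. It stood at 156, 161 and 115 CPM in knockout clones, against 236, 369 and 437 CPM in het clones. The clones did not overlap, and the means were 144 ± 25.2 CPM in knockout and 347 ± 102 CPM in het (SD, n = 3 each). The log2 fold change was -1.27 (SE 0.25, edgeR adjusted p = 0.0115), and it passed in all 15 alternative settings, with values between -1.49 and -1.07.

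Fosl1 (ENSMUSG00000024912, chromosome 19, 5447547 to 5455946, plus strand) encodes Fra-1, the other late Fos protein, which AP-1 itself helps to induce. It stood at 154, 101 and 63.0 CPM in knockout clones, against 60.6, 49.6 and 45.7 CPM in het clones. All knockout clones were above all het clones, but the lowest of them was close to the highest het clone. The means were 106 ± 45.6 CPM in knockout and 52.0 ± 7.74 CPM in het (SD, n = 3 each). The log2 fold change of 1.03 (SE 0.31) just missed the threshold (edgeR adjusted p = 0.0517). It passed with library totals in place of TMM (edgeR adjusted p = 0.0383), with DESeq2 (adjusted p = 0.00493) and without knockout replicate 3 (1.29, edgeR adjusted p = 0.0117). With the median of its chromosome neighbourhood, 0.43, taken out, the log2 fold change was 0.60 (edgeR adjusted p = 0.209). Fosl1 overlaps Ccdc85b on the opposite strand, which had 286 counts in knockout clones and 171 in het clones, and no source used here says whether the estimation used strand.

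Jun (ENSMUSG00000052684, chromosome 4, 95049034 to 95052222, minus strand) encodes c-Jun, the strongest activator among the Jun proteins. It stood at 81.0, 74.2 and 43.0 CPM in knockout clones, against 59.7, 55.8 and 61.1 CPM in het clones. Knockout replicates 1 and 2 were above every het clone and knockout replicate 3 below every het clone. The means were 66.1 ± 20.3 CPM in knockout and 58.9 ± 2.72 CPM in het (SD, n = 3 each), with a log2 fold change of 0.17 (SE 0.23, edgeR adjusted p = 0.62). Without knockout replicate 3 the value was 0.39 and passed (edgeR adjusted p = 0.0341), and without knockout replicate 1 its sign turned, at -0.01 (edgeR adjusted p = 0.985).

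Junb (ENSMUSG00000052837, chromosome 8, 84974484 to 84978718, minus strand) encodes a weaker activator that can restrain c-Jun. It stood at 27.6, 29.8 and 27.7 CPM in knockout clones, against 20.5, 19.1 and 39.2 CPM in het clones. The knockout clones were nearly equal, whereas het replicate 3 was above all of them and het replicates 1 and 2 below. The means were 28.4 ± 1.22 CPM in knockout and 26.3 ± 11.2 CPM in het (SD, n = 3 each), with a log2 fold change of 0.11 (SE 0.28, edgeR adjusted p = 0.789). Without het replicate 3 it was 0.52 and passed (edgeR adjusted p = 0.0425). Its sign turned without het replicate 1 (-0.04) and without het replicate 2 (-0.08). Junb overlaps the far more abundant peroxiredoxin gene Prdx2 on the opposite strand, with 7866 counts in knockout clones and 10627 in het clones.

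Jund (ENSMUSG00000071076, chromosome 8, 70698949 to 70700616, plus strand), the Jun gene found also in resting cells, was the 1 member that passed on the higher side. Fosl1, likewise higher in every knockout clone, just missed the threshold. Jund stood at 53.8, 54.4 and 46.4 CPM in knockout clones, against 31.8, 26.4 and 34.5 CPM in het clones. The clones did not overlap, and the means were 51.5 ± 4.46 CPM in knockout and 30.9 ± 4.10 CPM in het (SD, n = 3 each). Jund rose by 0.74 on the log2 scale (SE 0.13, edgeR adjusted p = 0.00873). Its chromosome neighbourhood moved the same way, with a median of 0.33. With that median taken out the value of Jund was 0.41 and did not pass (edgeR adjusted p = 0.0652). Gm11175, annotated as antisense to Jund, had 378 counts in the knockout clones and 54 in the het clones, and reads of the pair cannot be told apart unless strand was used.

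Egr1 (ENSMUSG00000038418, chromosome 18, 34859823 to 34864984, plus strand), the EGR gene with the highest level in these cells, stood at 42.1, 25.8 and 40.2 CPM in knockout clones, against 197, 140 and 198 CPM in het clones. The lowest het clone was more than 3 times as high as the highest knockout clone. The means were 36.0 ± 8.93 CPM in knockout and 178 ± 33.4 CPM in het (SD, n = 3 each). Egr1 fell by 2.31 on the log2 scale (SE 0.23, edgeR adjusted p = 0.00135). It stayed between -2.46 and -1.98 over 15 alternative settings and passed in all of them, the end nearest 0 being the value with the neighbourhood median of -0.32 taken out.

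Egr2 and Egr3, whose proteins share the zinc finger domain of Egr1, were close to the detection limit in knockout clones. Egr2 (ENSMUSG00000037868, chromosome 10, 67535475 to 67542188, plus strand) had 2, 0 and 4 counts in knockout clones, against 30, 24 and 23 counts in het clones, or 0.110 ± 0.104 CPM in knockout and 1.53 ± 0.235 CPM in het (SD, n = 3 each). The log2 fold change was -3.66 (SE 0.67, edgeR adjusted p = 0.00906) and was -4.49 without knockout replicate 3. Summed over clones, Egr2 was 13.2-fold lower in knockout, with an exact 95% counting interval of 5.81 to 37.1. Egr3 (ENSMUSG00000033730, chromosome 14, 70077203 to 70082614, plus strand) had 0, 0 and 1 count in knockout clones, against 19, 10 and 18 counts in het clones. Both genes had fewer counts in every knockout clone than in any het clone. Egr3 summed to 1 count in knockout and 47 in het, a 48.4-fold lower sum with a 95% counting interval of 8.28 to 1953. Without the low-count filter, where 16.5% of genes passed, Egr3 passed as well (edgeR adjusted p = 0.00401).

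**Figure D2:**
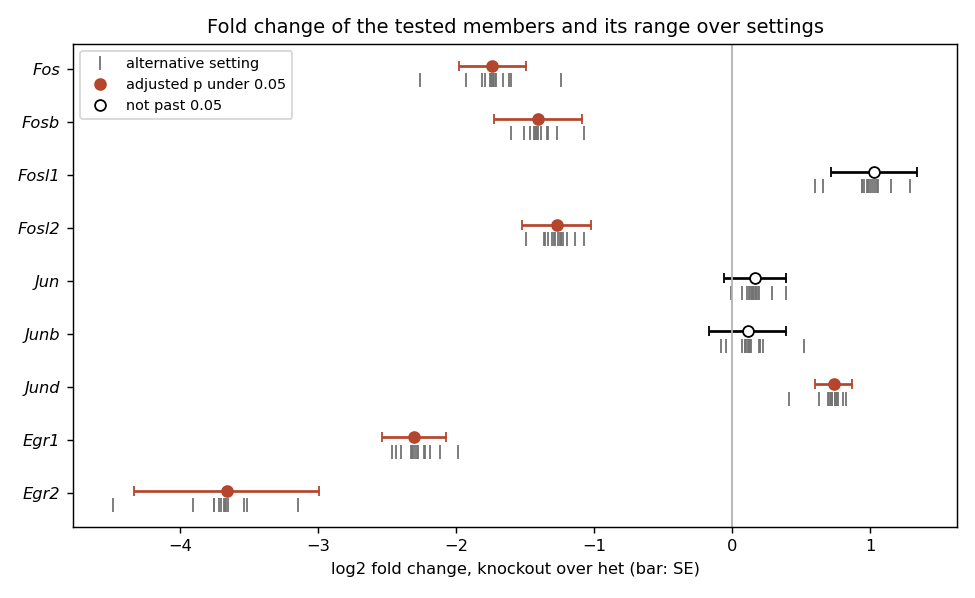
Log2 fold change of knockout over het (x axis) for each tested member, with its SE as a bar and the value under each alternative setting as a tick below it. Filled points passed edgeR's test. All ticks of Fos, Fosb, Fosl2, Egr1 and Egr2 lie below 0, with the point of Egr2 lowest at -3.66, those of Jund and Fosl1 lie above 0, and those of Jun and Junb lie on both sides.

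The clones of 1 genotype differed among themselves more for several members than for a typical gene. Over all tested genes the median within-group SD of log2(CPM + 0.1) was 0.184 among knockout clones and 0.187 among het clones. Among knockout clones the SD was 0.644 for Fosl1, 0.494 for Jun and 0.390 for Egr1. Among het clones it was 0.570 for Junb, 0.501 for Fosb and 0.459 for Fosl2. The steadiest were Junb among knockout clones, at 0.0613, and Jun among het clones, at 0.0672. Knockout replicate 3 was the lowest knockout clone for Fosl1, Fosl2, Jun and Jund and the highest for Fos, Fosb, Egr2 and Egr3.

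Levels can be set against each other between genes only per transcript length. On a scale of FPKM rebuilt from all transcripts of each member, Fosl1 was the most abundant in knockout clones, at 62.1 ± 26.7 FPKM (SD, n = 3). Fosl2 at 23.1 ± 3.99, Jun at 20.7 ± 6.35, Jund at 17.9 ± 1.55 and Junb at 15.4 ± 0.665 FPKM followed below every Fosl1 value, each overlapping its neighbour in the order. Egr1 was 6th in knockout clones, at 11.8 ± 2.93 FPKM, and Fos at 1.86 ± 0.353 and Fosb at 0.765 ± 0.0551 FPKM stood apart below it. Egr2 at 0.0632 ± 0.0734 and Egr3 at 0.0114 ± 0.0198 FPKM came last and overlapped.

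In het clones Egr1 was the most abundant, at 58.5 ± 10.95 FPKM (SD, n = 3), overlapping Fosl2 at 56.6 ± 16.003 FPKM. Fosl1 was 3rd in het clones, at 30.4 ± 4.53 FPKM, below every clone of the pair above it. Jun at 18.5 ± 0.852, Junb at 14.3 ± 6.10 and Jund at 10.7 ± 1.43 FPKM followed, with Junb overlapping both. Fos had 6.24 ± 0.892 and Fosb 1.86 ± 0.658 FPKM, and Egr2 at 0.790 ± 0.223 and Egr3 at 0.625 ± 0.218 FPKM overlapped at the end.

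**Figure D3:**
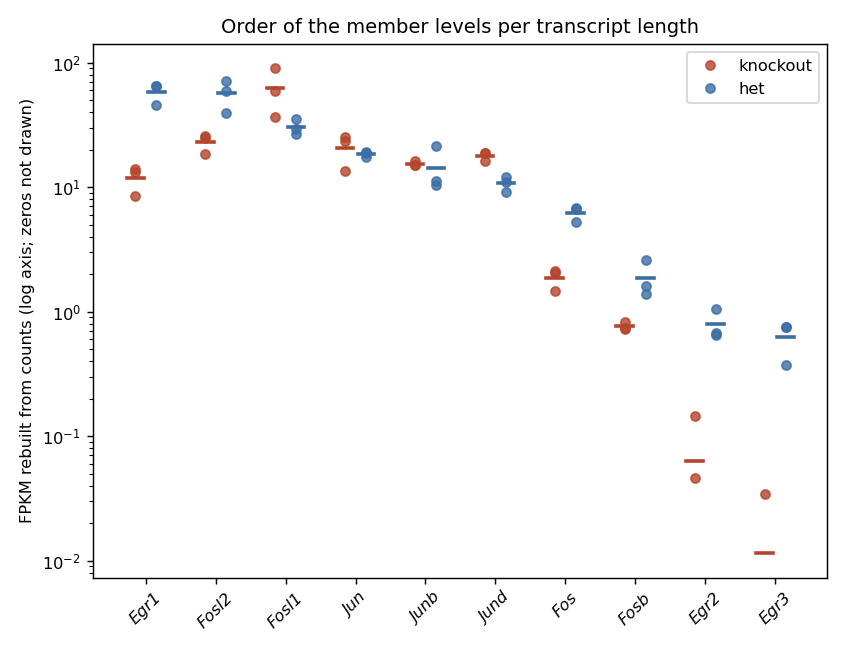
Level of each member in rebuilt FPKM (y axis, log scale, values of 0 not drawn), with each clone as a point, group means as lines, knockout left of het, and genes ordered by the het mean. Egr1 is 6th in knockout clones at a mean of 11.8 FPKM and 1st in het clones at 58.5 FPKM, whereas Fosl1 is 1st in knockout clones and 3rd in het clones.

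Summed Fos family levels overlapped between the groups, whereas the shares of Fos, Fosl1 and Fosl2 did not. On the authors' deposited FPKM scale, in which Fosb, Egr2 and Egr3 have no transcript, the Fos family summed to 120, 87.4 and 59.6 FPKM in knockout clones, against 78.0, 91.8 and 104 FPKM in het clones. These sums overlapped (89.0 ± 30.3 in knockout and 91.4 ± 13.2 in het, SD, n = 3 each, exact two-sided permutation p = 0.9). Fosl1 made up 77.9%, 69.4% and 64.9% of the sum in knockout clones, against 45.4%, 31.9% and 26.4% in het clones. Fosl2 made up 21.1%, 29.3% and 31.9% in knockout clones, against 49.0%, 63.6% and 68.0% in het clones. So Fosl1 was the larger part in every knockout clone and Fosl2 in every het clone. The difference in mean share, knockout minus het, was 36.2 percentage points for Fosl1 and -32.8 points for Fosl2. Fos itself held 1.89% ± 1.21 in knockout and 5.26% ± 0.65 in het (SD, n = 3 each).

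For the Jun family the sums were 61.3, 59.7 and 46.8 FPKM in knockout clones, against 40.7, 37.4 and 53.9 FPKM in het clones, and they overlapped (exact permutation p = 0.2). Jund held 33.4% ± 2.38 of the sum in knockout and 24.9% ± 2.08 in het (SD, n = 3 each). The shares of Jun (exact permutation p = 0.4) and Junb (p = 0.6) overlapped between the groups. Egr1, the EGR gene with deposited FPKM values, stood at 14.3, 8.62 and 13.7 FPKM in knockout clones, against 64.1, 46.1 and 66.4 FPKM in het clones. For the shares of Fos, Fosl1, Fosl2 and Jund the exact permutation p was 0.1, the smallest that 3 clones against 3 allow, and 0.25 after adjustment over 10 shares. None could therefore reach 0.05. The 10 shares include those of Fosb, Egr2 and Egr3, fixed at 0% on this scale, and that of Egr1, fixed at 100%, which raises the adjusted value. The shares of Fosl1 and Fosl2 are parts of the same sum and so are not separate results.

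**Figure D4:**
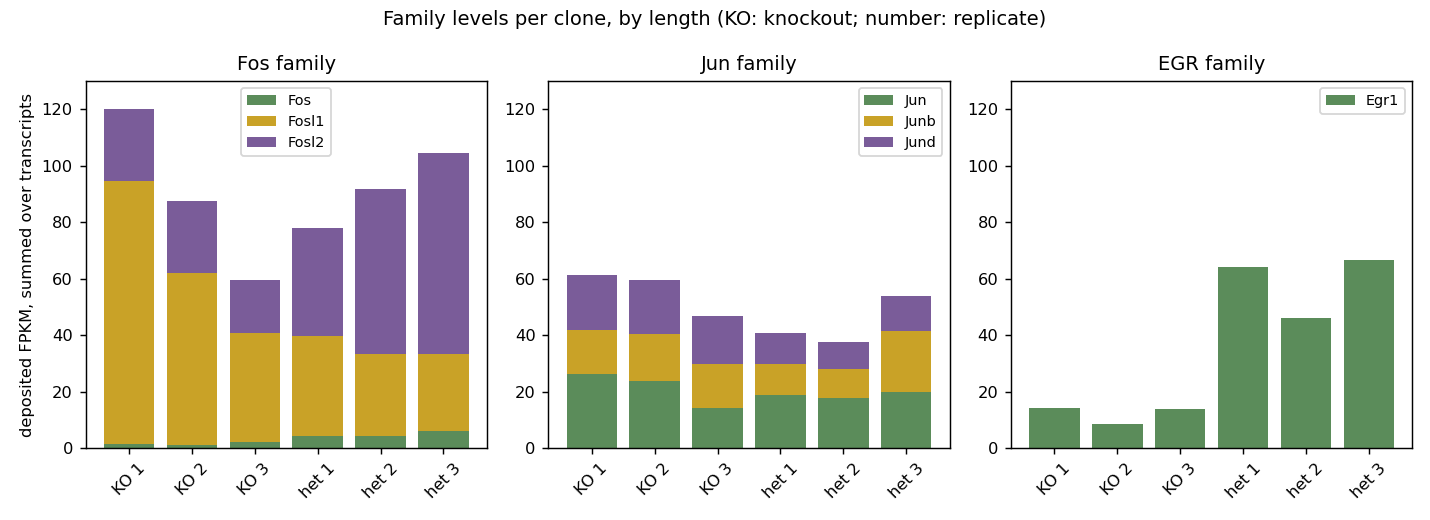
Deposited FPKM of the Fos, Jun and EGR genes stacked per clone (y axis, FPKM), with knockout clones left of het clones. Fosl1 fills 64.9% to 77.9% of the Fos family bar in knockout clones and 26.4% to 45.4% in het clones, and the EGR bars, which hold Egr1 alone, are lower in every knockout clone.

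By transcript, 13 of 28 member transcripts had enough counts to be tested and 5 passed, against 7.92% of all transcripts tested. The main Fos transcript Fos-201 fell (log2 fold change -1.68, edgeR adjusted p = 0.0263), as did Egr1-202 (-2.23, edgeR adjusted p = 0.00894). Both tested forms of Fosl2 that passed also fell, the coding Fosl2-201 (-1.19, edgeR adjusted p = 0.0486) and the retained-intron form Fosl2-203 (-1.70, edgeR adjusted p = 0.0179). Jund-201 rose (0.81, edgeR adjusted p = 0.0272). No tested form of Fosb or Egr2 passed, with edgeR adjusted p of 0.699 for Fosb-201, 0.0553 for Fosb-204 and 0.0579 for Egr2-201. Fosl2-202 (edgeR adjusted p = 0.11) and Egr1-201 (0.107) did not pass either. Leaving out 1 clone left between 1 and 6 transcripts past the threshold, with 1 when knockout replicate 1, knockout replicate 2, het replicate 2 or het replicate 3 was left out and 3 without het replicate 1.

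Single forms of Fosb varied more between clones than the gene sum. Fosb-201 had 29.0, 36.4 and 49.8 estimated counts in knockout clones, against 140.7, 92.0 and 0.0 in het clones. In het replicate 3 the counts stood instead in Fosb-205 (33.4) and Fosb-207 (28.7). The split between forms is an estimate, and the gene sum was used above. In the authors' deposited table, which holds 8 member transcripts, 6 had an adjusted p under 0.05, against 14% of all its transcripts. These were Egr1-202 (log2 fold change -2.27), Fosl2-201 (-1.23), Fosl2-203 (-1.75) and Fos-201 (-1.70) on the lower side and Jund-201 (0.77) and Fosl1-201 (1.06, adjusted p = 0.00616) on the higher side in the authors' deposited table.

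The genes around the members were taken from 8 lists of partners, regulators and targets that share some genes. Of 168 listed genes 152 were tested, and 33.6% passed, 21 higher and 30 lower, near the 28.1% of all genes. Without knockout replicate 2 the count of 51 fell to 19, and without knockout replicate 1 to 30. The median log2 fold change over the lists was -0.14.

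The corepressors that bind EGR proteins and are themselves EGR targets both fell. Nab1 stood at 52.6, 49.0 and 48.1 CPM in knockout clones, against 103, 111 and 98.5 CPM in het clones (log2 fold change -1.06, SE 0.09, edgeR adjusted p = 0.000752). Nab2 stood at 29.7, 30.7 and 41.4 CPM in knockout clones, against 83.7, 63.1 and 87.7 CPM in het clones (-1.20, SE 0.18, edgeR adjusted p = 0.00486). The clones did not overlap for either gene, and Egr4 had too few counts to be tested. Of 17 tested genes on the EGR target list, 1 was higher, 4 were lower and 12 did not pass. The share that passed, 29.4%, was near the 28.1% of all genes tested. The growth factor gene Pdgfa rose (33.5 ± 2.64 CPM in knockout and 14.0 ± 3.34 CPM in het, SD, n = 3 each, edgeR adjusted p = 0.00435). The membrane protease gene Mmp14 fell (282 ± 33.1 CPM in knockout and 470 ± 44.8 CPM in het, edgeR adjusted p = 0.00865), a call lost without knockout replicate 2 (edgeR adjusted p = 0.0502).

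Of 12 tested leucine zipper partners of Fos and Jun, 3 were higher, 3 lower and 6 did not pass. The share that passed was 50%, against 28.1% of all genes tested. Mafk, a small Maf protein, rose (46.8 ± 1.91 CPM in knockout and 33.9 ± 0.567 CPM in het, SD, n = 3 each, edgeR adjusted p = 0.011). The stress-induced Atf3 stood at 23.3, 25.5 and 26.0 CPM in knockout clones, against 31.5, 47.2 and 48.8 CPM in het clones (log2 fold change -0.77, edgeR adjusted p = 0.0202). Its call was lost when any of 4 clones, knockout replicates 1 and 2 and het replicates 2 and 3, was left out, with edgeR adjusted p values of 0.0648 to 0.075. Maf stood at 0.794, 1.11 and 1.19 CPM in knockout clones, against 4.43, 32.0 and 46.8 CPM in het clones (-4.74, edgeR adjusted p = 0.0132), with wide spread among the het clones. Batf3 averaged 0.384 CPM in knockout and 2.26 CPM in het (-2.50, edgeR adjusted p = 0.0179). Batf3 passed the low-count filter through its het counts, with 21 counts in all in the knockout clones. Without knockout replicate 2 the calls of Mafk, Maf and Batf3 were lost too (edgeR adjusted p = 0.0548, 0.0626 and 0.0751). Those of Maf and Batf3 also ended without knockout replicate 1 (edgeR adjusted p = 0.0651 and 0.0726), that of Maf without knockout replicate 3 (0.0513) and with limma-voom (0.11), and that of Batf3 without het replicate 3 (0.0512). With the neighbourhood median taken out Atf3 did not pass either (edgeR adjusted p = 0.0808).

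Of 42 other immediate early genes, all tested, 4 were higher, 11 lower and 27 did not pass, with a median log2 fold change of -0.31. Sgk1, a serum- and glucocorticoid-induced kinase, stood at 89.1, 86.1 and 43.7 CPM in knockout clones, against 372, 551 and 459 CPM in het clones (-2.66, SE 0.31, edgeR adjusted p = 0.00223). Arc, a gene induced with neuronal activity and by serum, stood at 1.89, 1.85 and 3.21 CPM in knockout clones, against 12.99, 15.1 and 28.9 CPM in het clones (-3.03, SE 0.40, edgeR adjusted p = 0.0031). Others rose. Ier3, an early response gene of cell survival, averaged 107 ± 30.1 CPM in knockout and 43.2 ± 3.77 CPM in het (SD, n = 3 each, edgeR adjusted p = 0.00653). Csrnp1, a nuclear protein gene, averaged 72.3 ± 12.997 CPM in knockout and 29.1 ± 6.43 CPM in het (edgeR adjusted p = 0.00522). The list held both falls and rises, and 35.7% of it passed, against 28.1% of all genes tested.

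Of 17 tested SRF, TCF, MRTF and CREB regulators, 2 were higher, 4 lower and 11 did not pass. The share that passed was 35.3%, against 28.1% of all genes tested. The TCF gene Elk4 fell (32.6 ± 2.49 CPM in knockout and 47.8 ± 1.81 CPM in het, SD, n = 3 each, edgeR adjusted p = 0.00931). Creb3l1, a membrane-bound relative of CREB, fell (1.54 ± 0.231 CPM in knockout and 8.15 ± 2.76 CPM in het, edgeR adjusted p = 0.00365). Mef2a fell (56.6 ± 3.71 CPM in knockout and 86.8 ± 11.3 CPM in het, edgeR adjusted p = 0.0123). Creb1, the CREB gene itself, was lower (39.6 ± 0.439 CPM in knockout and 52.9 ± 1.84 CPM in het, edgeR adjusted p = 0.0139), and its call was lost on the FPKM scales. Without knockout replicate 2 the calls of Elk4, Creb1 and Mef2a were lost (edgeR adjusted p = 0.0519, 0.0699 and 0.0635), that of Creb1 also without knockout replicate 1 (0.0526), and that of Mef2a also with its neighbourhood median taken out (0.122). Srf, named here after its value was seen, averaged 61.4 ± 11.4 CPM in knockout and 54.8 ± 13.02 CPM in het and did not pass (edgeR adjusted p = 0.587).

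Of 28 tested MAP kinase cascade genes, 2 were higher, 3 lower and 23 did not pass. The share that passed, 17.9%, was below the 28.1% of all genes tested. The p38 activator Map2k6 averaged 0.794 ± 0.345 CPM in knockout and 5.88 ± 0.597 CPM in het (SD, n = 3 each, edgeR adjusted p = 0.00294). Map2k6 had 41 counts in all in the knockout clones and met the low-count filter only together with its het counts. Mapk12, p38 gamma, averaged 2.90 ± 1.16 CPM in knockout and 19.7 ± 8.90 CPM in het (edgeR adjusted p = 0.0073). Mapk11, p38 beta, averaged 7.34 ± 1.71 CPM in knockout and 15.7 ± 0.358 CPM in het (edgeR adjusted p = 0.0105). Mapkapk2, a kinase downstream of p38, rose (238 ± 15.2 CPM in knockout and 170 ± 12.8 CPM in het, edgeR adjusted p = 0.0135), a call lost without knockout replicate 2 (edgeR adjusted p = 0.0594) or 1 (0.0531). Of the other p38 branch genes on the list, named after their values were seen, Mapk14 (edgeR adjusted p = 0.23), Map2k3 (0.267) and Mapkapk3 (0.975) did not pass.

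Of 20 tested feedback inhibitors of MAP kinases, 5 were higher, 1 lower and 14 did not pass. The share that passed, 30%, was near the 28.1% of all genes tested. The 5 higher ones were all MAP kinase phosphatases, Dusp9 (32.9 ± 10.9 CPM in knockout and 13.5 ± 3.78 CPM in het, edgeR adjusted p = 0.0233) and the 4 described next. The lower one was Errfi1 (32.7 ± 8.43 CPM in knockout and 58.9 ± 7.09 CPM in het, edgeR adjusted p = 0.0199). The phosphatase gene Dusp1 was lower too, at 46.1 ± 17.0 CPM in knockout and 88.3 ± 9.38 CPM in het, and just missed the threshold (edgeR adjusted p = 0.0504). The other Dusp genes on the list, Dusp2, Dusp5, Dusp6, Dusp7 and Dusp14, did not pass (edgeR adjusted p = 0.231 to 0.852). Their log2 fold changes lay between -0.48 and 0.56. Dusp4 stood at 46.7, 32.8 and 12.3 CPM in knockout clones, against 5.03, 1.12 and 1.07 CPM in het clones (log2 fold change 3.66, SE 0.79, edgeR adjusted p = 0.0198). Dusp8 averaged 36.3 ± 3.68 CPM in knockout and 22.2 ± 2.44 CPM in het (SD, n = 3 each, edgeR adjusted p = 0.00994). Dusp10 averaged 32.4 ± 4.45 CPM in knockout and 19.5 ± 1.12 CPM in het (edgeR adjusted p = 0.00968), and Dusp16 99.9 ± 1.26 CPM in knockout and 74.6 ± 5.31 CPM in het (edgeR adjusted p = 0.0152). Without knockout replicate 2 none of Dusp4, Dusp8, Dusp10 and Dusp16 passed (edgeR adjusted p = 0.0544 to 0.0718), and without knockout replicate 1 Dusp4 (0.0628) and Dusp16 (0.0589) did not. The call of Dusp4 also ended without het replicate 2 (edgeR adjusted p = 0.061) or 3 (0.0531) and when low-count genes were not filtered out (0.0611).

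Of 27 tested AP-1 target genes, 5 were higher, 6 lower and 16 did not pass. The share that passed was 40.7%, against 28.1% of all genes tested. Cyclin D1 (Ccnd1) stood at 4.52, 3.69 and 2.02 CPM in knockout clones, against 128, 102 and 70.7 CPM in het clones (log2 fold change -4.89, SE 0.37, edgeR adjusted p = 0.000576). Il1rl1, the interleukin 33 receptor gene, was transcribed at 5.01, 5.78 and 3.88 CPM in knockout clones, against 503, 613 and 1178 CPM in het clones (-7.29, SE 0.44, edgeR adjusted p = 0.000213). The metallothionein gene Mt2 averaged 3.69 ± 1.83 CPM in knockout and 43.6 ± 7.73 CPM in het (SD, n = 3 each, edgeR adjusted p = 0.00133). The matrix protease gene Mmp10 rose (1.56 ± 0.269 CPM in knockout and 0.0387 ± 0.0336 CPM in het, edgeR adjusted p = 0.00223), against 2 counts in all in the het clones. Mmp10 passed the low-count filter through its knockout counts and had to differ to be tested. The same holds for Mmp13, with 15 counts in all in the het clones. Areg, with 4 counts in all in the knockout clones, passed the filter through its het counts. All of these are among the genes counted above as higher or lower. Targets listed for the same factor thus moved both ways.

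**Figure D5:**
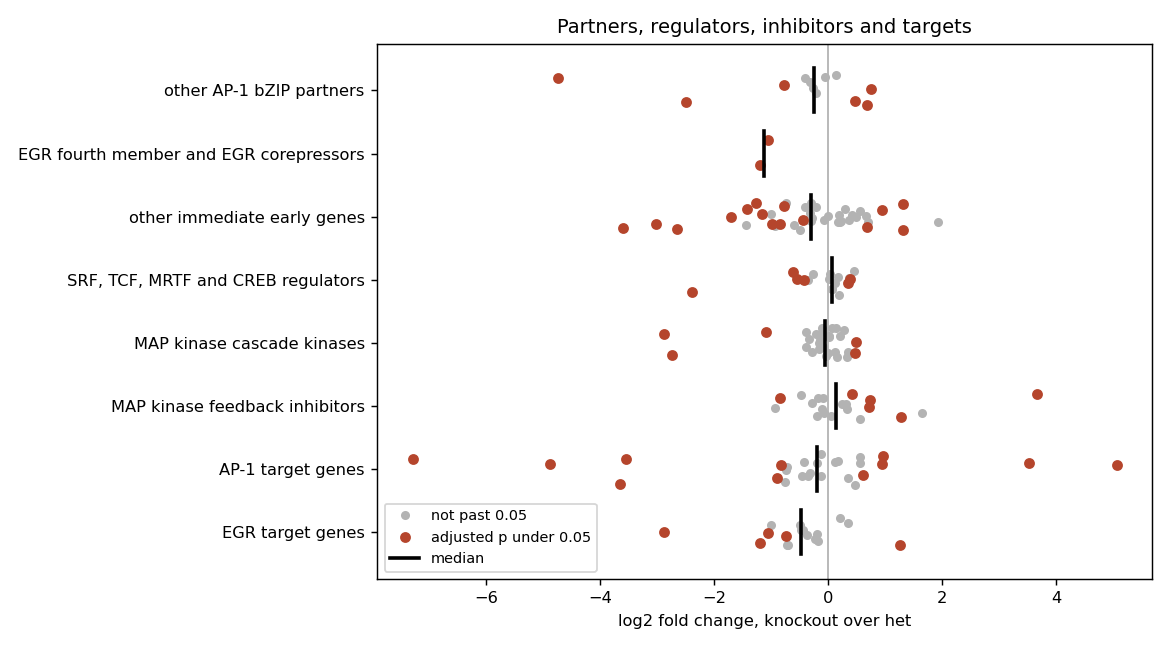
Log2 fold change of knockout over het (x axis) for each tested gene of the 8 lists, with filled red points for genes past edgeR's test, grey points for the others and a line at each list's median. The counts of genes higher and lower are 4 and 11 for other immediate early genes and 5 and 1 for MAP kinase feedback inhibitors. The shares that passed are 35.7% and 30% for these lists, against 28.1% of all genes tested.

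Among 10403 genes averaging at least 5 CPM, those whose log2(CPM + 0.1) was most like Fos over the 6 clones were Klf9 (Pearson r 0.998), Gas1 (0.997) and Rcn3 (0.997). Those most like Egr1 were Zfp146 (0.998), Tmem268 (0.998) and Prrx2 (0.997). Being chosen for their likeness to genes that were lower in knockout clones, all 6 were lower there, for example Klf9 at 14.3, 13.2 and 15.6 CPM in knockout clones, against 24.4, 25.9 and 28.3 CPM in het clones. Gas1, a growth arrest gene, averaged 0.927 ± 0.824 CPM in knockout and 71.5 ± 20.5 CPM in het (SD, n = 3 each). The call of Zfp146 was lost with its neighbourhood median taken out (log2 fold change -0.03, edgeR adjusted p = 0.827) and without het replicate 3 (0.0552), knockout replicate 1 (0.0546) or knockout replicate 2 (0.0913), and that of Tmem268 without knockout replicate 2 (0.0523). The 6 points are the same clones in 2 groups that differ in level for all of these genes, and the coefficients describe these libraries alone.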

How the data were processed

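Poly(A) RNA from 3 knockout and 3 het clones was sequenced with a stranded kit, per the labels' protocols. The submitters' processing notes name Trimmomatic 0.36, kallisto 0.42.5, edgeR and build GRCm38.p4. For 96626 transcripts the authors deposited estimated counts, 48% of which were not whole, and for 24799 they deposited FPKM. The deposited FPKM values equal count over length and a scaled library total. The authors' deposited comparison gives, per the file headers, log2 values of the fold change and the mean CPM and, with and without adjustment, p-values. Its sign matched knockout over het.

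Transcripts were assigned to genes with GENCODE M21 (95213 matched, 260 through the authors' table). The 1153 unmatched held 0.0174% to 0.0278% of the counts of a library. Counts were summed per gene, rounded, filtered with filterByExpr (minimum 10, total 15), scaled with TMM and tested with edgeR 4.0.16 (robust quasi-likelihood, two-sided, Benjamini-Hochberg over 12745 genes, threshold 0.05) under R 4.3.3. The test was checked on simulated data. Shares and sums over few genes were compared with exact two-sided permutation tests over clones. Alternatives were DESeq2 1.42.0, limma 3.58.1 (voom, and log2 of FPKM with pseudocounts of 1 and 0.1), other scalings and filters, the median of 20 tested neighbours on each side taken out, and leaving out each clone.

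All 10 members were named. From each list up to 4 passing genes with the smallest adjusted p were eligible, or, with fewer than 2 such genes, the 2 others of highest level, and for Fos and Egr1 the 3 genes most alike. Dusp1, Dusp2, Dusp5, Dusp6, Dusp7, Dusp9, Dusp14, Errfi1, Mmp13 and Areg were named outside this rule, as were Srf, Mapk14, Map2k3 and Mapkapk3. The members and lists were chosen with earlier results of these data known, so the counts over them are descriptions. Each SE was computed from the fold change and its F value. FPKM was rebuilt from the counts of all member transcripts, since 3 members have none in the deposited FPKM table. Replicate numbers follow accession order and pair no clones. Promoter sequences are RefSeq's (GRCm38.p6).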

Additional observations from a re-analysis of the deposited data

How the results depend on the processing

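No paired analysis was possible because the labels give the clones no replicate numbers. Over scalings, filters and tests, 2901 to 4426 genes passed (3585 as reported). Leaving out 1 clone gave 1566 to 3825, with 1566 without knockout replicate 2, 1892 without knockout replicate 1 and 2227 without het replicate 2. Members passing numbered 4 of 7 on both FPKM scales, 5 of 9 with the neighbourhood median taken out and 7 of 9 with library totals. Egr3 was also tested, and passed, with no filter (7 of 10), with DESeq2 (8 of 10) and without any 1 knockout clone or het replicate 2. Leaving out 1 clone gave 6 to 9, or 5 to 8 of the 9 reported, with 5 without knockout replicate 1 or 2. The median of the members was 0.15 on log2(FPKM + 1) (0.145) and on log2(FPKM + 0.1) (0.149), over the 7 members in that table, which lacks Fosb and Egr2, -0.58 without Egr2, an alternative added after seeing the data, and -1.40 to -1.07 when 1 clone was left out. Genes passing in the 8 lists then numbered 19 to 56, and member transcripts 1 to 6. The difference in the Fosl1 share was 27.0 points on summed CPM, and on scales added after seeing the data 36.5 points with rebuilt FPKM and 32.1 to 41.6 points without 1 clone. The sign turned for Junb without het replicate 1 (-0.043) and het replicate 2 (-0.082), with 0.518 without het replicate 3 and a pass, and for Jun without knockout replicate 1 (-0.0088), with 0.394 without knockout replicate 3 and a pass. Fewer samples remain when a clone is left out; for the other changes the cause was not tested. For 35 other named genes 482 of 519 alternative values kept call and direction, 37 lost the call and 0 turned sign. Depth limits Egr2 and Egr3, whose knockout counts lie at or near the limit of 3 counts a library.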
